A study of Mus musculus with 8 samples.

Results

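A set of 10 genes that mark the stem cells of the mouse hair follicle was followed across bulge cells with and without the histone methyltransferase G9a. The members were every probe set whose platform gene symbol is Cd34, Krt15, Krt19, Lgr5, Lgr6, Lrig1, Gli1, Itga6, Col17a1 or Postn, which gave 13 probe sets of 10 genes among the 45037 probe sets and 17097 named genes of the array, controls left out. The rule itself uses gene names only, and the genes were listed with earlier results of these data known. The cells came from back skin of mice that received, over 6 weeks and starting when they were 8 weeks old, a weekly application of the mutagen DMBA (0.25 mg/ml) and the tumour promoter TPA (0.02 mg/ml), 200 µl of each in acetone. The labels give the animals as 15 weeks old, the tissue as epidermis and the cells as pre-neoplastic bulge cells. One group was 4 arrays of G9a cKO mice (conditional knockout of the gene), and the other was 4 arrays of G9a WT mice. Both groups carried the same DMBA and TPA treatment, and no untreated skin was analysed here. The sources used here do not name the Cre driver, the strain or the way bulge cells were isolated.

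The bulge is the outer-sheath niche in which quiescent follicle stem cells rest between hair cycles. The hair germ lies just below it and is the first to divide when a new hair grows, while the isthmus and junctional zone above it hold further stem cells that serve the sebaceous gland and infundibulum. Each of these compartments is recognised by a small set of genes. CD34, a sialomucin, and the α6 integrin are the surface pair commonly used to sort bulge cells. The keratins encoded by Krt15 and Krt19 are structural proteins of the bulge, LGR5 and LGR6 are receptors for R-spondins, LRIG1 restrains ERBB receptors, and GLI1 is a transcription factor and target of hedgehog signalling.

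The start regions of the markers differ in the CG dinucleotides that DNA methylation acts on. RefSeq promoter windows (GRCm38.p6) were at hand for 5 of the 10 genes, in 6 windows, and the 250 bases before each start were searched. Over all 32851 windows the median was 6 CG. Lrig1 had 26, a number reached by 9.59% of windows, and Lgr6 had 16 (25.4%). Cd34 had 6, Postn 3 and 4 at its 2 starts, and Col17a1 2, and 29.0% of windows have as few as Col17a1. TATAAA on either strand was found in Col17a1 and at 1 Postn start, and in 12.4% of all windows. The richest and the poorest of these genes are shown, with CG in capitals, since they span the range. Neither Lrig1 nor Col17a1 passed the test between genotypes, and methylation was not measured here.
Lrig1, chr6:94700146-94700395, minus strand: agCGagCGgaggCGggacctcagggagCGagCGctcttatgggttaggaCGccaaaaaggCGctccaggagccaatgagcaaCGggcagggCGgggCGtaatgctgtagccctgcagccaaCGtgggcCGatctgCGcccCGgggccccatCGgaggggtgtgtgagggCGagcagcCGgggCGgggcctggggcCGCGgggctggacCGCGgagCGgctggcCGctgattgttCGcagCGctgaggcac
Col17a1, chr19:47692043-47692292, minus strand: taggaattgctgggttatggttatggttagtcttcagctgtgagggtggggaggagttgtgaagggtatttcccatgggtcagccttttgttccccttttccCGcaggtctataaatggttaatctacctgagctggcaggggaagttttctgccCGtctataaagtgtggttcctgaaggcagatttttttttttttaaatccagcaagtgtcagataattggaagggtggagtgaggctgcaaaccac

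The knockout was visible in 1 of the 2 Ehmt2 probe sets, the gene of G9a: 1460692_PM_at read 5.54 to 6.44 in cKO and 8.89 to 9.29 in WT. The other, 1426888_PM_at, read 8.39 to 8.43 in cKO and 8.40 to 8.42 in WT. Where either lies relative to the deletion was not stated. Ehmt1, the gene of the partner enzyme GLP, differed by 0.0043 (limma adjusted p = 0.990). All values are RMA log2 expression, a scale on which 1 unit is a 2-fold change, and the array medians were 5.87 to 5.95. A probe set's brightness depends on its probes, so levels are compared between arrays and not between genes. The titles number the replicates without saying that each is a separate animal, so the p-values measure only the spread between these arrays, which may be technical. Across all 45037 probe sets, 802 passed an adjusted p of 0.05, and this number ran from 419 to 1691 when single arrays were left out. In a bulk sample a change in the number of cells of a type and a change in RNA per cell cannot be told apart.

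Of the 13 marker probe sets, 1 rose in cKO and none fell at an adjusted p under 0.05 (limma, Benjamini-Hochberg over all probe sets; 3 of the 13 had an unadjusted p under 0.05). The one that rose was Krt19. Over all probe sets 1.19% were called higher and 0.591% lower, or 1.78% in either direction. The median difference, cKO minus WT, was 0.04 over the 13 and -0.0036 over all probe sets. The 4 cKO and 4 WT arrays did not overlap in 2 of the 13, Krt19 and Krt15, in both cases with cKO higher; groups did not overlap in 7.35% of all probe sets, and in 4.15% with cKO higher. In the other 12 probe sets the 95% interval of the difference lay between -0.39 and 0.43 on the log2 scale. A change of 1.5-fold in either direction thus lay outside the interval of each of these 12. Each interval is for 1 probe set alone. Like the p-values, it measures only the spread between these arrays, which may be technical. By their mean over all arrays, the 13 lay above the dimmest 40% of probe sets.

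**Figure D1:**
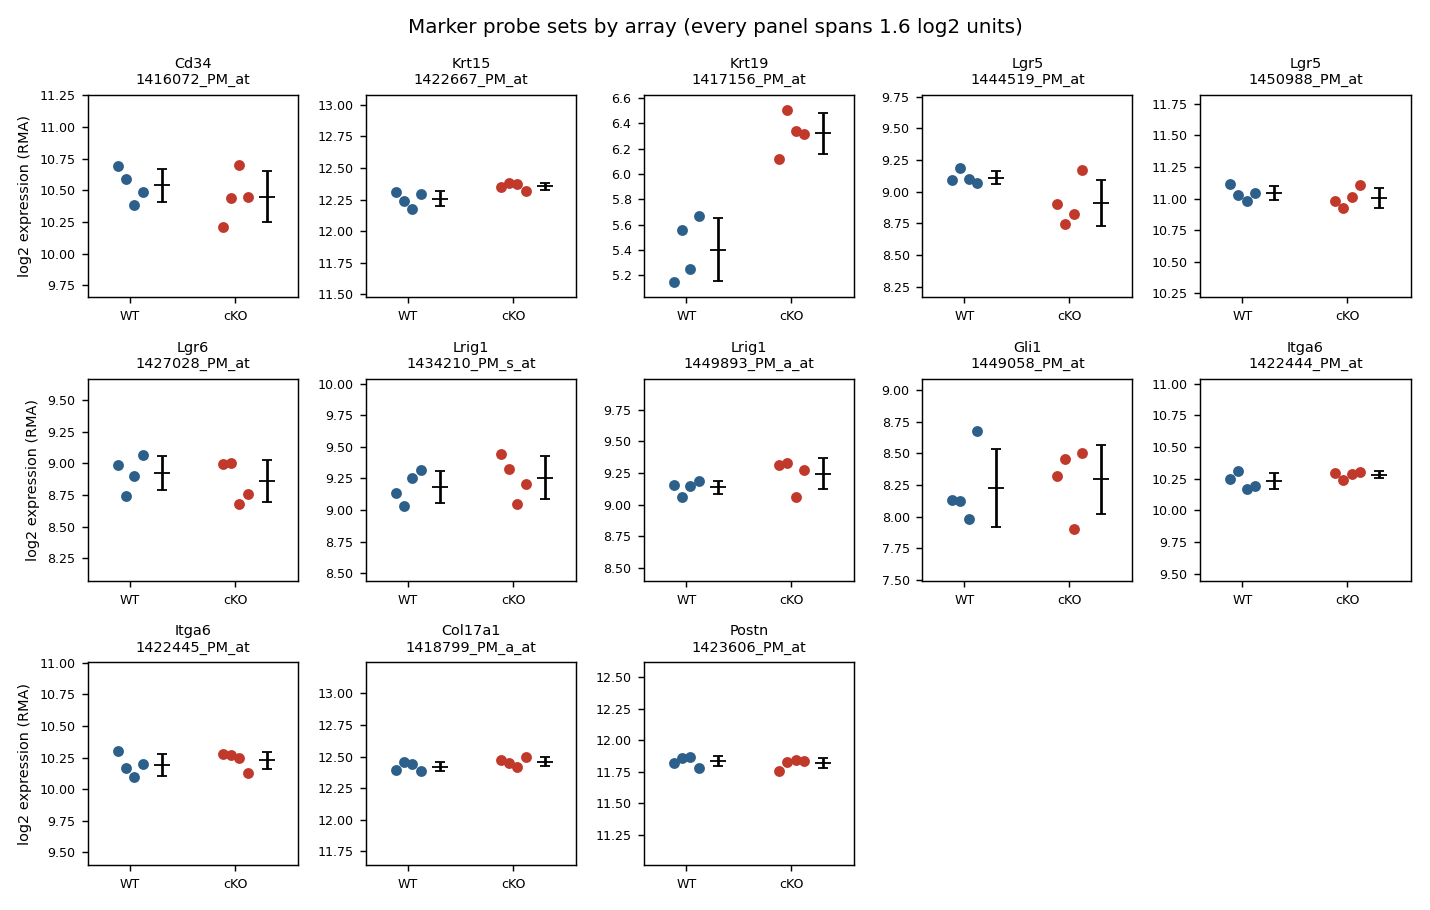
RMA log2 expression of the 13 marker probe sets in each array (WT blue, cKO red; black: mean ± SD, n = 4 each), with every panel spanning 1.6 log2 units and panels not comparable in height. The cKO and WT arrays separate by a wide gap for Krt19, with cKO at 6.11 to 6.51 and WT at 5.14 to 5.67, while Krt15 separates by a narrow margin and the rest overlap.

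Krt19, a type I keratin of the bulge that also occurs in simple epithelia, read 6.11, 6.51, 6.34 and 6.32 in the cKO arrays and 5.14, 5.55, 5.25 and 5.67 in the WT arrays. Every cKO array lay above every WT array. The difference was 0.92 (SE 0.12, 95% interval 0.65 to 1.19), which is 1.89-fold higher in cKO (limma adjusted p = 0.00337), and a two-sided exact permutation test of the 8 arrays reached p = 0.0286, the lowest value open to groups of 4. All 4 WT arrays lay below the array medians of 5.87 to 5.95 and all 4 cKO arrays above them. WT replicate 1 also lay below 5.23, the mean level under which a probe set belongs to the dimmest 40%, so the fold rests on dim WT values and is approximate. The call held whichever of the 8 arrays was omitted (limma adjusted p from 0.00198 to 0.0157). A list of 15 immediate early genes, the rapid transcriptional response to stimulation, had 0 members past the threshold (limma), while all 15 differences were below 0, with a median of -0.29. Its mean deviation per array was -0.25 to -0.06 in cKO and -0.13 to 0.33 in WT, where WT replicate 4 lay among the cKO arrays. With that mean as a covariate, a fit chosen after the data were seen, Krt19 was 0.75 higher in cKO and no longer passed (limma adjusted p = 0.200, where its other alternatives ran from 0.00105 to 0.0157). That fit called 124 of all probe sets, against 802 without the covariate, and the SE of Krt19 rose from 0.12 to 0.18. Because this list mean largely follows genotype, its part and that of genotype cannot be told apart. The same limit holds for every other call lost with this covariate.

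Krt19 was set beside 10 other measured keratins of skin and simple epithelia, none of which passed the test. Krt8 and Krt18, the simple-epithelial keratins, differed by 0.04 and 0.08 (limma adjusted p = 0.888 and 0.553). Krt5 and Krt14, the basal pair, differed by 0.01 and -0.04 (limma adjusted p = 0.920 and 0.599). The stress keratin gene Krt16 varied between arrays of both genotypes, from 7.41 to 8.0 in cKO and from 7.18 to 8.66 in WT (difference -0.32, limma adjusted p = 0.735). The median over the 10 was -0.0076, against 0.0027 over the highest-mean probe set of all genes.

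Krt15, the keratin most used to label the bulge, read 12.35, 12.38, 12.38 and 12.32 in cKO and 12.31, 12.24, 12.18 and 12.29 in WT. The groups did not overlap, but the lowest cKO array lay only just above the highest WT array. The difference of 0.10 (SE 0.03, 1.07-fold) did not pass over all probe sets (limma adjusted p = 0.223). Its exact permutation p was 0.0286, which every probe set with groups that do not overlap reaches (7.35% of all). That value therefore adds nothing to the lack of overlap.

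Cd34 read 10.21, 10.44, 10.70 and 10.45 in cKO and 10.69, 10.59, 10.38 and 10.49 in WT. The groups overlapped, with both the lowest and the highest array in cKO. The difference was -0.09 (SE 0.10, 95% interval -0.30 to 0.12; limma adjusted p = 0.799). The way the cells were isolated is not named. Had they been sorted on CD34 and α6 integrin, the levels of Cd34 and Itga6 could reflect the sort, which was not tested. Cd34 is also made by endothelium and by some fibroblasts. The 7 endothelial markers averaged 4.81 to 4.99 in cKO and 4.78 to 5.03 in WT, with 6 of the 7 among the dimmest 40% of probe sets, and none passed the test. Pecam1, the endothelial marker with the highest mean, read 5.86 to 6.12 in cKO and 5.68 to 6.05 in WT.

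**Figure D2:**
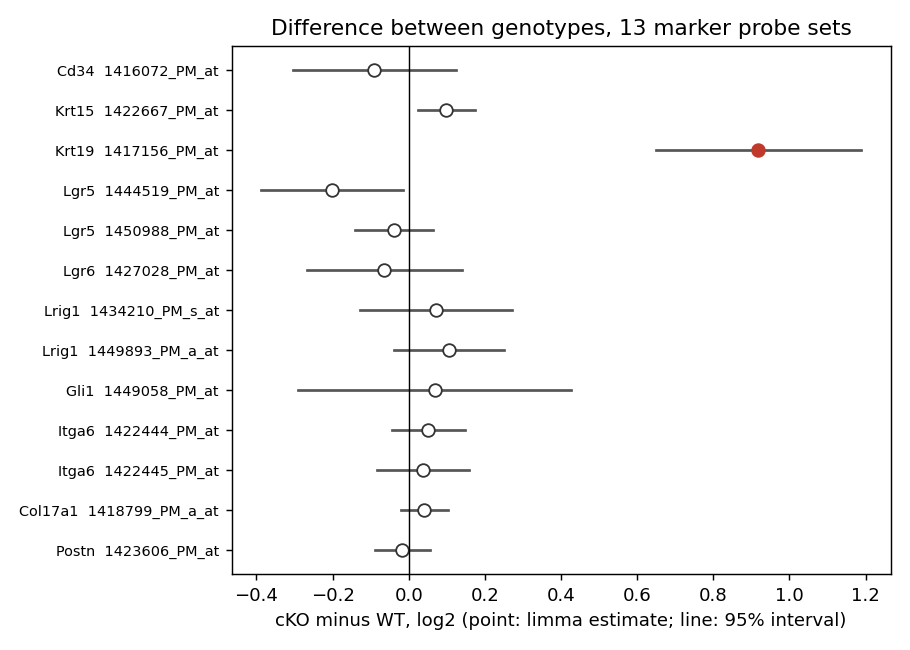
Difference between genotypes, cKO minus WT on the log2 scale, for each of the 13 marker probe sets (points: limma estimates; lines: 95% intervals; filled: adjusted p under 0.05). Krt19 stands at 0.92, and the other 12 estimates lie between -0.20 and 0.11.

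The R-spondin receptors of the hair germ and isthmus did not pass. Lgr5, which marks the lower bulge and hair germ, had 2 probe sets. Probe set 1450988_PM_at read 10.98, 10.92, 11.01 and 11.11 in cKO and 11.12, 11.03, 10.98 and 11.04 in WT, a difference of -0.04 (SE 0.05, limma adjusted p = 0.836). Probe set 1444519_PM_at read 8.90, 8.75, 8.82 and 9.17 in cKO against 9.09, 9.18, 9.10 and 9.07 in WT. There cKO replicates 1 to 3 lay below all WT arrays, and replicate 4 lay among them. Its difference of -0.20 (SE 0.08, 95% interval -0.39 to -0.01) had an unadjusted limma p of 0.0367 and did not pass over all probe sets (adjusted p = 0.336). Lgr6, the marker of isthmus stem cells, read 9.0, 9.0, 8.68 and 8.76 in cKO and 8.99, 8.74, 8.90 and 9.06 in WT. The difference was -0.06 (SE 0.09, limma adjusted p = 0.870). Of 8 other genes of this pathway none passed, with differences from -0.18 for Axin2, a feedback gene of WNT signalling, to 0.01. The lowest p among them was that of Rspo1, an R-spondin ligand (-0.10, limma adjusted p = 0.293), and Lgr4, the widely expressed relative of both receptors, differed by -0.0029.

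Lrig1, of the junctional zone, also had 2 probe sets, and both lay slightly higher in cKO without passing. Probe set 1434210_PM_s_at read 9.45, 9.32, 9.05 and 9.20 in cKO and 9.14, 9.03, 9.25 and 9.32 in WT (difference 0.07, SE 0.09, limma adjusted p = 0.844). Probe set 1449893_PM_a_at read 9.31, 9.33, 9.06 and 9.27 in cKO and 9.15, 9.06, 9.15 and 9.19 in WT (difference 0.11, SE 0.07, limma adjusted p = 0.568). In both, cKO replicate 3 was the lowest of its group. None of the 6 LRIG relatives and ERBB receptors passed, with differences from -0.10 (Erbb3, the lowest p; limma adjusted p = 0.540) to 0.07. Egfr, an ERBB receptor that LRIG1 restrains, differed by 0.06.

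Gli1, the hedgehog output gene of the upper bulge and hair germ, varied most within groups. It read 8.32, 8.46, 7.91 and 8.50 in cKO and 8.13, 8.12, 7.98 and 8.68 in WT. WT replicate 4 was the highest of all arrays and cKO replicate 3 the lowest, and the spread within WT was 0.70. The difference was 0.07 (SE 0.16, 95% interval -0.29 to 0.43; limma adjusted p = 0.934), and its sign turned when cKO replicate 4 or WT replicate 3 was left out. Of 10 other hedgehog genes none passed. Ptch1, the hedgehog receptor and itself a target of the pathway, read 9.77, 9.47, 9.08 and 9.18 in cKO and 9.09, 8.70, 8.68 and 9.71 in WT, with WT replicate 4 again the highest of its group (difference 0.33, limma adjusted p = 0.604). Hhip, a decoy for the ligand, had the lowest p (-0.36, limma adjusted p = 0.339).

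The adhesion and matrix markers did not pass. Itga6, the α6 subunit that pairs with β4 integrin in hemidesmosomes, had 2 probe sets. Probe set 1422444_PM_at read 10.24 to 10.30 in cKO and 10.17 to 10.31 in WT (difference 0.05, SE 0.04, limma adjusted p = 0.713). Probe set 1422445_PM_at read 10.13 to 10.28 in cKO and 10.10 to 10.31 in WT (difference 0.04, SE 0.05, limma adjusted p = 0.871). Col17a1, which encodes the hemidesmosomal collagen XVII and anchors follicle stem cells to the basement membrane, read 12.48, 12.45, 12.42 and 12.50 in cKO and 12.40, 12.46, 12.44 and 12.39 in WT. Its 95% interval ran from -0.02 to 0.10 (limma adjusted p = 0.624). Postn, which encodes the matricellular protein periostin, read 11.76, 11.82, 11.85 and 11.83 in cKO and 11.82, 11.86, 11.87 and 11.78 in WT. Its interval ran from -0.09 to 0.06 (limma adjusted p = 0.914). The groups overlapped in each of these 4 probe sets.

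None of the 9 other hemidesmosome and basement membrane genes passed either. Itgb4, the β4 partner, differed by 0.0047, and the linkers Plec and Dst by 0.02 and -0.0018. Lama3, a laminin chain, had the lowest p (0.14, limma adjusted p = 0.247). Among 7 matricellular genes, relatives in function of periostin, 1 rose. Tnc, which encodes tenascin-C, read 10.67, 10.72, 10.65 and 10.73 in cKO and 10.34, 10.52, 10.40 and 10.48 in WT (difference 0.26, limma adjusted p = 0.0214). Its second probe set read 4.10 to 4.37 in cKO and 4.07 to 4.41 in WT, which is among the dimmest 40% of probe sets. That probe set differed by 0.0095 (limma adjusted p = 0.982). The call for Tnc was lost without cKO replicate 2 or 4 or WT replicate 1 or 3 (limma adjusted p up to 0.0942), for the mean of its probe sets (0.335), and with the immediate early covariate (0.353). Fibroblasts make Postn and Gli1 as well. The 8 fibroblast markers averaged 4.98 to 5.04 in cKO and 5.0 to 5.10 in WT, and 5 of the 8 were among the dimmest 40%. One of them fell and 1 rose: Col1a1 read 5.93 to 6.38 in cKO and 6.96 to 7.19 in WT (limma adjusted p = 0.00114, or 0.0620 with the immediate early covariate), and Thy1 read 7.22 to 7.75 and 6.77 to 6.98 (limma adjusted p = 0.0315). The Thy1 call was lost without cKO replicate 2 or 3 or without WT replicate 1, 2 or 3 (limma adjusted p up to 0.0980), and with the immediate early covariate (0.424). The part of fibroblasts in the values of Postn and Gli1 was not tested.

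Around the 10 markers stood 77 measured genes of the same compartments and pathways in 9 lists, of which 1 rose (Tnc) and 3 fell. Over the highest-mean probe set of all genes 1.64% were called higher and 0.684% lower, or 2.33% in either direction. Of 11 bulge transcription factor genes 2 fell. Foxc1, a factor of bulge quiescence, read 9.07, 8.94, 8.94 and 9.0 in cKO and 9.29, 9.31, 9.18 and 9.32 in WT (difference -0.29, limma adjusted p = 0.0237). Gata6, a zinc finger factor of the upper follicle, read 6.35, 6.42, 6.34 and 6.44 in cKO and 6.77, 6.95, 6.81 and 6.62 in WT (difference -0.40, limma adjusted p = 0.0221). The groups did not overlap in either of these probe sets. The second probe set of Foxc1 differed by -0.26, with overlapping groups (limma adjusted p = 0.189), and that of Gata6 by -0.44 (limma adjusted p = 0.0559), so neither passed. Nfatc1, which holds bulge cells quiescent, was next with a difference of -0.35 (limma adjusted p = 0.0702). Sox9 and Lhx2, factors that maintain bulge identity, differed by -0.0072 and -0.01 (limma adjusted p = 0.972 and 0.965). The list's median was -0.0072, with 3 differences above 0 and 8 below. Among those above 0, Nfib had the lowest p (0.13, limma adjusted p = 0.169).

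Of 9 bulge surface and secreted genes 1 fell. Fst, which encodes the activin antagonist follistatin, read 10.51, 10.56, 10.49 and 10.40 in cKO and 10.99, 11.02, 11.05 and 10.66 in WT (difference -0.44, limma adjusted p = 0.0185). WT replicate 4 lay between the other WT arrays and the cKO arrays. The second Fst probe set differed by -0.37 and did not pass (limma adjusted p = 0.0817). Cd200, a surface protein of bulge cells, was lower by 0.19 in cKO without passing (10.71 to 10.79 in cKO and 10.91 to 11.06 in WT, limma adjusted p = 0.0683). Of the 9 differences 5 were above 0 and 4 below, with a median of 0.0079. Among those above 0, Npnt had the lowest p (0.28, limma adjusted p = 0.104). None of 7 hair germ and upper follicle genes passed. The lowest p was that of Msx2, a homeobox gene, with a difference of 0.23 (limma adjusted p = 0.0696). The calls for Foxc1, Gata6 and Fst each held in only 3 of the 8 fits that left out 1 array. In these fits the differences ran from -0.32 to -0.27, -0.46 to -0.35 and -0.53 to -0.40. Foxc1 was lost without any of cKO replicates 2 to 4 and WT replicates 1 and 2 (limma adjusted p up to 0.104). Gata6 was lost without any of cKO replicates 2 to 4 and WT replicates 1 and 3 (up to 0.0798), and Fst without cKO replicates 3 and 4 and WT replicates 1 to 3 (up to 0.0698). With the immediate early covariate the differences were -0.30, -0.24 and -0.18, and none of the 3 passed (limma adjusted p = 0.283, 0.544 and 0.468).

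**Figure D3:**
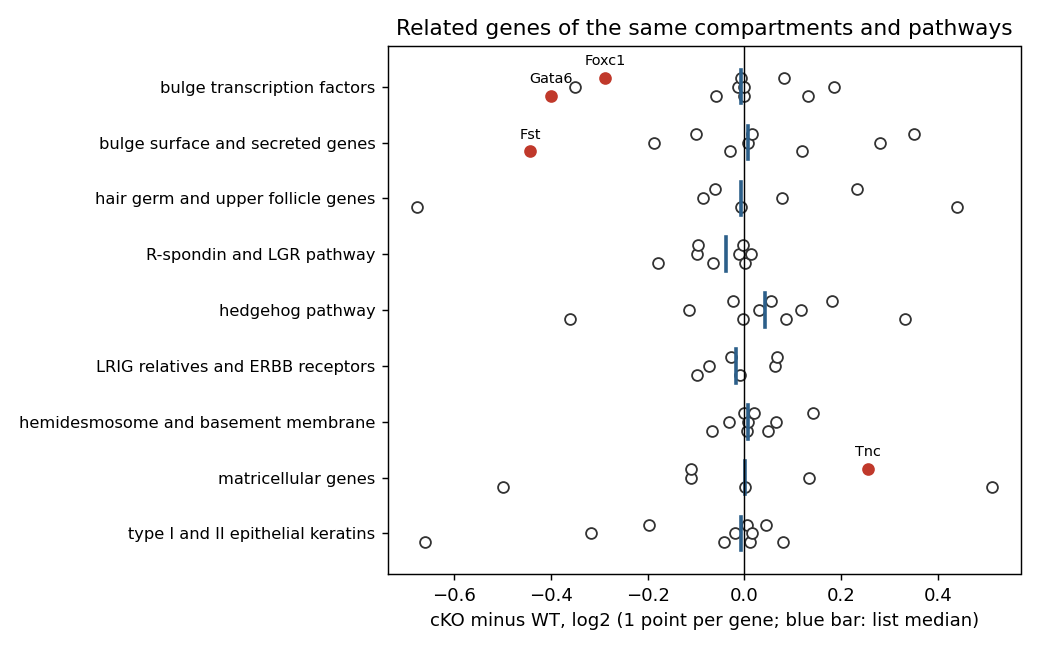
Difference between genotypes, cKO minus WT on the log2 scale, of 77 genes in 9 lists related to the markers (1 point per gene; filled and named: limma adjusted p under 0.05; blue bars: list medians). Foxc1, Gata6 and Fst lie below 0 and Tnc above it, and the list medians lie between -0.04 and 0.04.

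The labelled cell type was checked against other cells of the skin. The 7 basal keratinocyte genes averaged 11.1 in both groups and none passed. Macrophage markers averaged 4.36 to 4.47 in cKO and 4.39 to 4.65 in WT, and muscle markers 4.68 to 4.85 and 4.73 to 4.83, with 6 of 7 and 6 of 6 genes among the dimmest 40%. Their members with the highest mean were Csf1r (5.30 to 5.38 in cKO, 5.21 to 5.46 in WT) and Tnnt3 (4.97 to 5.22 and 5.09 to 5.29). Langerhans cell genes were not uniformly dim: 2 of the 6, Cd207 and Itgax, were among the dimmest 40%. Cd207, their defining lectin, read 4.33 to 4.59 in cKO and 4.32 to 4.55 in WT. The antigen presentation genes H2-Aa and Cd74 read 7.11 to 7.98 and 6.42 to 7.23 in cKO, and 7.20 to 8.28 and 6.09 to 7.50 in WT. Epcam, which is also on the basal keratinocyte list, had means of 10.09 in cKO and 10.15 in WT. No gene passed on the lists of Langerhans cells (6 measured), melanocytes (8), sebocytes (5) and Schwann cells (3), whose highest-mean members were Epcam, Mitf, Plin2 and Sox10, with differences of -0.06, -0.15, -0.01 and -0.04. Mitf had means of 9.44 in cKO and 9.58 in WT, Plin2 of 9.46 and 9.47, and Sox10 of 6.25 and 6.29. Of 6 T cell markers Thy1 alone passed. Among 8 genes of differentiated keratinocytes Sbsn rose (12.07 to 12.15 in cKO, 11.81 to 11.89 in WT) and Krtdap fell (7.03 to 7.19 and 7.46 to 7.99), while Krt1 and Krt10 differed by 0.0050 and 0.01. Krt1 had means of 10.02 in cKO and 10.01 in WT, and Krt10 of 10.38 and 10.37, all above the array medians of 5.87 to 5.95. The Krtdap call was lost without cKO replicate 2 or 4 or WT replicate 3 (limma adjusted p up to 0.0616), and that of Sbsn with the immediate early covariate (0.133). Trps1, on the dermal papilla list and also made by follicle epithelium, rose in all 4 of its probe sets (limma adjusted p = 0.00114 for the one used here, and 0.0755 with the immediate early covariate). Sostdc1 had the highest mean of the 5 dermal papilla genes (difference 0.37, limma adjusted p = 0.172). Of these 5 genes 2, Corin and Prom1, were among the dimmest 40%. The part of any other cell type in the Krt19 difference was not tested.

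Lrig1 and Lgr6 varied between arrays along with the proliferation genes, none of which differed between genotypes at the threshold. The mean deviation of 17 proliferation genes ran from -0.34 to 0.40 in cKO and from -0.30 to 0.47 in WT, highest in WT replicate 4 and cKO replicate 1. Across the 8 arrays Lrig1 probe set 1434210_PM_s_at rose with it (Pearson r = 0.896, exact permutation p = 0.00335, adjusted over 13 relations 0.0435; Spearman rho = 0.881, exact permutation p = 0.00724, adjusted 0.0471). Without those 2 arrays r was 0.890, and over deviations from each genotype's mean it was 0.944. The second Lrig1 probe set had r = 0.547 (exact permutation p = 0.160, adjusted 0.311). Lgr6 had rho = 0.952 (exact permutation p = 0.00114, adjusted 0.0148) and r = 0.835 (exact permutation p = 0.0145, adjusted 0.0945), with r = 0.767 without the 2 arrays. Cd34 leaned the other way, with r = -0.694 (exact permutation p = 0.0587, adjusted 0.191) and rho = -0.643 (exact permutation p = 0.0962, adjusted 0.208). Postn had r = -0.741 (exact permutation p = 0.0363, adjusted 0.157), but r = -0.04 without the 2 arrays, so that value rests on them. Gli1 had r = 0.570 (exact permutation p = 0.142, adjusted 0.311), and r = 0.233 without the 2 arrays. Krt19 had r = -0.0056 (exact permutation p = 0.988). These relations were computed after the array values had been seen. With the proliferation mean as a covariate the Krt19 difference was 0.92 (limma adjusted p = 0.00425), and no other marker passed.

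**Figure D4:**
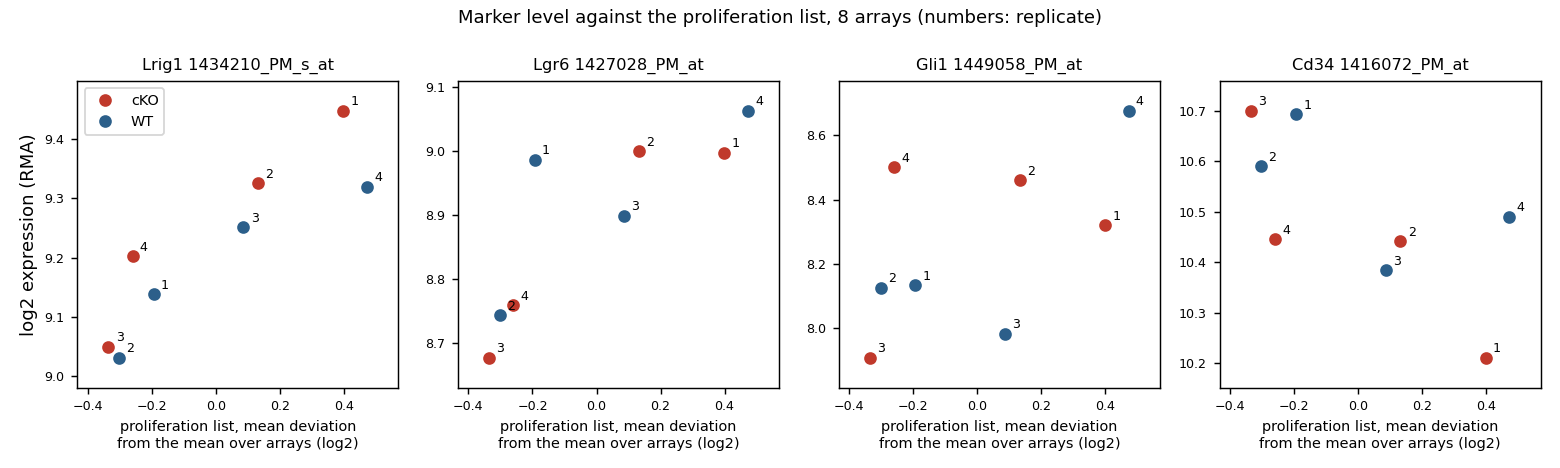
Level of 4 markers in each of the 8 arrays (vertical, RMA log2) against the mean deviation of 17 proliferation genes from their mean over arrays (horizontal, log2; cKO red, WT blue; numbers are replicates). Lrig1 and Lgr6 rise from left to right in both genotypes (r = 0.896 and 0.835). The correlation is weaker for Gli1 (r = 0.570, or 0.233 without WT replicate 4 and cKO replicate 1) and negative for Cd34 (r = -0.694).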

How the data were processed

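The deposited table holds log2 expression per probe set, computed by the authors (RMA is named in the submitters' processing notes, without version or settings). RNA (25 ng) was amplified over 17 cycles before 8 µg of cDNA were labelled, per the labels' protocols. Columns were assigned through the labels. Of 45141 probe sets, 104 controls were left out, 28898 had 1 symbol in the platform annotation, 551 had several and 15588 had none. All 45037 were fitted in R 4.3.3 using limma 3.58.1 (linear model, moderated variances with an intensity trend; cKO against WT, two-sided, no filter), with Benjamini-Hochberg adjustment over all of them and a threshold of 0.05. List genes stand as their probe set with the highest mean. Exact permutation tests used 4 against 4 arrays. The fit was checked on simulated data. The named genes are all members, Ehmt2, Ehmt1, from each related list the genes past the threshold or else the one with the lowest p, and from each cell type list up to 2 past the threshold and the one with the highest mean; Cd207, Krt1, Krt10, Sox9, Lhx2, Nfatc1, Cd200, Ptch1, Axin2, Lgr4, Egfr, Itgb4, Plec, Dst and the keratins beside Krt18 were added after their values were seen. Nfib and Npnt were also added after their values were seen. The members and lists were chosen with earlier results of these data known. The fits with a list mean as a covariate were chosen after seeing the data. Promoter windows are from RefSeq. Figures were drawn with matplotlib 3.10.9.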

Additional observations from a re-analysis of the deposited data

Results flagged for a closer look

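In Fst, WT replicate 4 read 10.66 while the other WT arrays read 10.99 to 11.05, a gap that sets it apart from its group by Dixon's test. It was the only one of 40 groups of 4 arrays examined, over the members, the Ehmt2 and Ehmt1 probe sets and the 4 related genes past the threshold, and chance alone sets apart about 1 in 20.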

How the results depend on the processing

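The Krt19 difference stayed between 0.75 and 1.01 and passed in 17 of 18 alternatives; with the immediate early covariate the number of marker probe sets called higher was 0, and the cause was not tested. No marker passed lower in any alternative. The number of all probe sets called was 802; it was 472 with 1 probe set per gene and 495 with the mean of a gene's probe sets, which test fewer features, 1457 with array weights, 124 with the immediate early covariate, 330 and 1355 at thresholds of 0.01 and 0.1, and 419 to 1691 without single arrays, highest without WT replicate 4. The replicate number as a block left 454, and with it Krt19 passed while Foxc1, Gata6, Tnc and Thy1 did not (limma adjusted p = 0.0896, 0.0883, 0.0537 and 0.0505). Same-numbered arrays did not deviate together (correlations from -0.544 to 0.07), and 1 of 8 arrays correlated best with its own number. No pairing by number was therefore visible, which does not exclude one. Signs turned for Gli1, Lrig1 probe set 1434210_PM_s_at and Postn with the immediate early covariate (-0.24, -0.0029 and 0.014), none of them past the threshold; without single arrays Gli1 ran from -0.0145 to 0.22 and Postn from -0.0343 to 0.0019. With 4 arrays a group, differences inside the intervals given cannot be resolved.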
